A study of Mus musculus with 8 samples.

Results

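The genes described here are 8 effectors of necroptosis and pyroptosis, Mlkl, Ripk1, Ripk3, Zbp1, Gsdmd, Nlrp3, Pycard and Aim2. They were measured in the kidneys of 8 mice after ischaemia-reperfusion injury or a sham operation. Their probes were found by gene name in the annotation of the arrays, and they had 14 of the 56605 distinct probes and made up 8 of the 36826 names on the array. Of the 14 probes 9 passed a filter that asked for a signal well above background in both mice of some group, and these 9 covered 6 of the 8 genes. Nlrp3 and Aim2 did not reach that level and were not tested with the rest.

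Total RNA of the left kidney was measured on 1-colour Agilent arrays in 4 groups of 2 mice, named here by group and by the mouse number in the labels. In the IRI group (mice 30 and 34) the right kidney was removed and the left renal vessels were clamped for 45 min and then released, which gives an acute kidney injury. The mimic group (mice 6 and 7) and the control-miRNA group (mice 1 and 5) had this same operation and, 2 days before it, were injected through the tail vein with 5 nmol of small RNA in 200 µl, complexed with nanoparticles of polyethyleneimine, a positively charged polymer used for delivery of nucleic acids. Mimic mice received a miR-5100 mimic and control-miRNA mice a control sequence. Sham mice (1 and 4) had only a midline incision of the abdomen. All kidneys were taken 24 h after the operation. The 3 injured groups therefore share the loss of the right kidney as well as the clamping, which sham mice had neither of, and no group received nanoparticles without injury or the mimic without injury. Strain, age and sex are not given in the sources used here.

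Necroptosis is a lytic cell death without caspase activity. The kinase RIPK1, downstream of death receptors, or the nucleic acid sensor ZBP1 engages the kinase RIPK3, which phosphorylates MLKL, and MLKL then breaches the plasma membrane. In pyroptosis, sensors such as NLRP3 and AIM2 assemble with the adaptor ASC, the product of Pycard, and activate caspase-1, which cleaves gasdermin D into a fragment that forms membrane pores and lets interleukin 1 beta out of the cell. Both routes have been studied in the tubular epithelium of the injured kidney, where dying cells release their contents into the tissue. The proteins act after phosphorylation, cleavage or assembly, so a transcript level measures the supply of a component and not the activity of the route.

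The mature miR-5100 is shown because its mimic is the injected RNA; the capitals mark the seed, bases 2 to 8. It is encoded at chr11:60728698-60728718 on the + strand (RefSeq, GRCm38.p6). No probe for it was used here.
mmu-miR-5100: uCGAAUCCcagcggugccucu

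The windows of 250 bases before the transcription start are shown for the 3 members that were higher in every injured group, Mlkl (chr8:111338206-111338455, - strand), Ripk3 (chr14:55788858-55789107, - strand) and Pycard (chr7:127993868-127994117, - strand), and for Ripk1, which was not. The second window of Ripk1 (chr13:34002624-34002873, + strand) is given, with capitals for the letters that match a STAT site. The sequences are from RefSeq on GRCm38.p6 and read 5′ to 3′.
Mlkl: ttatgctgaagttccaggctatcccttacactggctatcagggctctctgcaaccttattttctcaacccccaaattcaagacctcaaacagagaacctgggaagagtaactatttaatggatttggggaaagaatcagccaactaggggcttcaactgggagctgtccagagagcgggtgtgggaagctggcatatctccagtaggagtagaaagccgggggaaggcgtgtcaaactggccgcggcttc
Ripk3: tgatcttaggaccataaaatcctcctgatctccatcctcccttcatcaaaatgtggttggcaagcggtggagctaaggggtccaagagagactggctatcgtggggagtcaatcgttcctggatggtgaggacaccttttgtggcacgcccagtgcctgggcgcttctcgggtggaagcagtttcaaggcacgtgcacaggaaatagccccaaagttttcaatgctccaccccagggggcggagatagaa
Pycard: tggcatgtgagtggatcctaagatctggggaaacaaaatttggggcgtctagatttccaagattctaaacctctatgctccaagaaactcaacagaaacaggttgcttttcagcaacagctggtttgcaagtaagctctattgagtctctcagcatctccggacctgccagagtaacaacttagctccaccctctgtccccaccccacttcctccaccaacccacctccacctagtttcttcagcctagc
Ripk1: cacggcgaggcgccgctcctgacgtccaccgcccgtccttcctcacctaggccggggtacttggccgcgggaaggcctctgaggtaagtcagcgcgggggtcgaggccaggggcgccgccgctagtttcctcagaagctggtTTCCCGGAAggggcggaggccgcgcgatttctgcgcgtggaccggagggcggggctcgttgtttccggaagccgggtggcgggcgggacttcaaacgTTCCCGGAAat

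Windows were on hand for 6 of the 8 members, 8 windows in all, and not for Zbp1 and Gsdmd. They were searched on both strands for the interferon-stimulated response element, TTCNNNGAA (STAT site), TGANTCA (AP-1 site) and the NF-kB site. Matches of different motifs were counted separately where they overlapped. Of 32851 mouse promoter windows of this length 2.98% hold the response element, 7.02% the STAT site, 6.75% the AP-1 site and 7.25% an NF-kB site. The Ripk1 window printed above holds 2 STAT matches, 108 to 100 and 11 to 3 bases before the start, both TTCCCGGAA. A second window of Nlrp3 (chr11:59541319-59541568, + strand) holds 1 NF-kB match, GGGAACCCCC, 186 to 177 bases before the start. The windows of Mlkl, Ripk3, Pycard and Aim2 and the other windows of Ripk1 and Nlrp3 hold no match to these motifs, which says nothing of the factors themselves.

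A level below is the log2 of the processed signal of a probe minus the log2 of the 75th percentile of its array, so 0 is the 75th percentile and 1 unit is a 2-fold difference in signal. Where a gene had several probes the brightest on average represented it, and levels of different probes are not set against each other. The percentile itself was 468 and 600 for IRI, 308 and 242 for mimic, 500 and 416 for control miRNA and 408 and 476 for sham, so the mimic arrays were the dimmest. On each array 53.2% to 58.8% of 59305 spots exceeded background by that flag. Proximal tubule markers such as Lrp2 and Slc34a1 were well above background in all groups. By the test given below, 7 of 8 were lower than in sham in each injured group. Of all genes 8.85% were lower in IRI, 12.8% in mimic and 7.79% in control-miRNA than in sham kidneys. In RNA of a whole kidney fewer cells of a type and less RNA per cell cannot be told apart. With 2 arrays per group the precision of all values is limited.

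In IRI against sham kidneys 3 of the 6 tested members were higher, Mlkl, Ripk3 and Pycard, and 0 lower; over all 21264 genes tested 9.45% were higher and 8.85% lower in IRI than in sham kidneys (limma, Benjamini-Hochberg adjusted p under 0.05, as in all tests below). In control-miRNA against sham kidneys the same 3 members passed, all higher, where 9.55% of genes were higher and 7.79% lower. In mimic against sham kidneys all 6 passed, 5 of them higher and Ripk1 lower, where 15.2% of genes were higher and 12.8% lower. These 3 comparisons share the 2 sham arrays, so their overlap carries no weight of its own.

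Between the injured groups 1 difference of a member passed. Mimic against control miRNA, the comparison in which both groups had an RNA in nanoparticles, gave 0 of 6 members, and 0% of genes passed (limma; 0 of 21264, against 7188 at an unadjusted p under 0.05). Without mimic 6 this comparison gave 2 members, Zbp1 and Aim2, the second of which entered the test there through mimic 7 alone, and 6352 genes, and with normexp correction 1 member, Zbp1, and 5833 genes. Control miRNA against IRI alone gave 0 of 6 members and 0% of genes (limma; 870 at an unadjusted p under 0.05). Mimic against IRI alone gave 1 of 6, Zbp1, where 16% of genes passed in either direction. The smallest adjusted p of any gene in that last comparison was 0.0386, and without any 1 of the arrays other than mimic 6 it gave 0 genes; without mimic 6 it gave 7614.

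**Figure D1:**
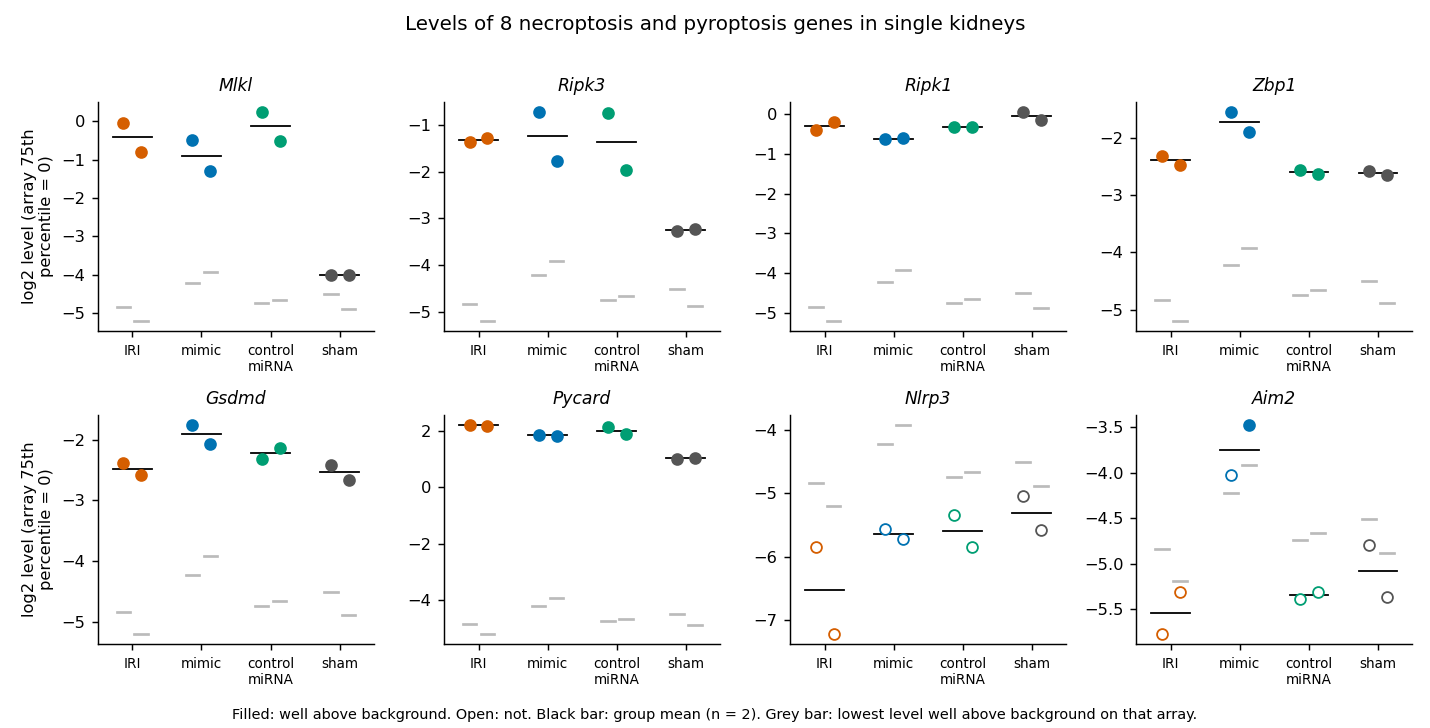
Level of each member in each kidney (log2 signal, array 75th percentile at 0), by group. Filled points are well above background, open points are not, black bars are group means of 2 mice and grey bars the lowest level well above background on that array. The injured kidneys lie between -1.30 and 0.24 for Mlkl, all above the sham kidneys at -4.00 and -4.01, and Nlrp3 has open points alone.

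Upstream in the necroptosis route, Ripk1 encodes the kinase that receives the death receptor signal. Its level was -0.41 and -0.21 in IRI kidneys, -0.63 and -0.61 in mimic, -0.34 and -0.32 in control-miRNA and 0.05 and -0.16 in sham kidneys. The injured kidneys were all below the sham kidneys, and the mimic kidneys were the lowest of the 8. In mimic against sham the log2 difference of -0.57 ± 0.16 (SE), a 1.48-fold lower level, passed the test (limma adjusted p = 0.0418). In IRI against sham the difference was -0.26 with a 95% interval of -0.64 to 0.13 (limma adjusted p = 0.310). In control miRNA against sham it was -0.27, from -0.66 to 0.11. The call in mimic against sham was lost in each of the 8 fits that left out 1 array, with adjusted p-values of 0.0598 to 0.216 (limma), and in the fit without the filter on dim probes (0.101).

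Ripk1 is measured by 3 probes on chr13 of mm9 that did not move alike. The values above are of the probe at chr13:34126830-34126889. The probe at chr13:34125152-34125211 read -0.32 and -0.08 in IRI, -1.10 and -2.10 in mimic, -0.45 and -0.53 in control-miRNA and -0.63 and -0.67 in sham kidneys. Here the IRI kidneys lay above the sham kidneys and the mimic kidneys below all others. The probe at chr13:34106391-34106450, annotated to an Ensembl transcript only, read -4.66 and -4.77 in IRI, -3.33 and -3.43 in mimic, -4.88 and -5.00 in control-miRNA and -3.59 and -4.60 in sham kidneys, and was well above background on 4 of the 8 arrays. On this probe the mimic kidneys were the highest of the 8 in level. Before scaling they did not stand apart, at 30.6 and 22.4, with 33.9 in sham 1 and 22.0 in IRI 34. With all 32216 probes fitted singly, mimic minus IRI was -1.40 ± 0.32 on the second probe (limma adjusted p = 0.0360). The dim probe was well above background in both mice of the mimic group alone, so it passed the filter through the group where it is high and no test is given for it. The mean of the 3 probes did not pass in mimic against sham (-0.27, limma adjusted p = 0.361), but it includes the dim probe and so cannot decide a direction. The first and second probes were well above background on all 8 arrays. Mimic minus sham was -0.57 on the first and -0.94 on the second, where it did not pass (limma adjusted p = 0.0626). IRI minus sham differed in sign between them, at -0.26 and 0.45. No direction is given for Ripk1 as a gene.

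Zbp1, the sensor of Z-form nucleic acids that can engage RIPK3 without RIPK1 and is itself induced by interferon, was higher in the mimic kidneys. Its level was -2.31 and -2.47 in IRI, -1.56 and -1.90 in mimic, -2.57 and -2.63 in control-miRNA and -2.59 and -2.65 in sham kidneys. Both mimic kidneys were above the other 6, while control-miRNA and sham kidneys overlapped. Mimic minus sham was 0.89 ± 0.18, a 1.86-fold higher level (limma adjusted p = 0.0144), and mimic minus IRI was 0.67 ± 0.18, or 1.59-fold (limma adjusted p = 0.0494). Mimic minus control miRNA was 0.87, with a 95% interval of 0.45 to 1.30, and did not pass (limma adjusted p = 0.0662). IRI minus sham was 0.23, from -0.20 to 0.65, and control miRNA minus sham 0.02, from -0.40 to 0.44. The call against IRI was lost without any 1 of the 8 arrays, at adjusted p-values of 0.0610 to 0.265 (limma). The call against sham was lost without sham 1 (0.0810) or sham 4 (0.105), and the difference from control miRNA passed without mimic 6 (0.70, adjusted p = 0.0299, limma). Mimic minus IRI fell short at 0.38 with the series table (limma adjusted p = 0.205) and with quantile normalization (0.204), and with the mean of both probes (0.76, 0.0672). Mimic minus sham kept its call with the first 2 of these settings and missed it with the mean of both probes (0.79, limma adjusted p = 0.0502).

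The second Zbp1 probe (chr2:173032258-173032317, mm9, against chr2:173039307-173039366 for the first) read -4.36 and -4.09 in IRI, -3.54 and -3.19 in mimic, -5.07 and -3.71 in control-miRNA and -3.75 and -4.35 in sham kidneys. In level the mimic kidneys were again the highest 2. The spread within control-miRNA and sham was wider and no comparison passed (mimic minus sham 0.69 ± 0.44, limma adjusted p = 0.263). This probe was dim, and in control-miRNA 1 it was not well above background. Before scaling the mimic kidneys, at 26.5 and 26.5, were not the highest, with 35.2 in IRI 34. IRI minus sham had the opposite sign to the first probe, at -0.17.

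Ripk3 encodes the kinase at which the RIPK1 and ZBP1 branches meet. Its level was -1.36 and -1.28 in IRI, -0.71 and -1.76 in mimic, -0.73 and -1.97 in control-miRNA and -3.27 and -3.22 in sham kidneys (chr14:56403949-56404008, mm9, - strand). All 6 injured kidneys lay above both sham kidneys, and the injured groups overlapped one another. IRI minus sham was 1.93 ± 0.46, a 3.80-fold higher level (limma adjusted p = 0.0327). Mimic minus sham was 2.01 (4.02-fold, limma adjusted p = 0.0224) and control miRNA minus sham 1.90 (3.72-fold, limma adjusted p = 0.0357). The mice of 1 group differed by 1.05 in mimic and 1.24 in control-miRNA kidneys but by 0.08 in IRI and 0.05 in sham kidneys. Mimic minus control miRNA was 0.11 with an interval of -0.99 to 1.21.

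The Ripk3 calls rested on few arrays. In IRI against sham the adjusted p (limma) was 0.133 without IRI 30, 0.145 without IRI 34, 0.156 without sham 1 and 0.135 without sham 4. In mimic against sham it was 0.0631 without mimic 6, 0.101 without sham 1 and 0.110 without sham 4. In control miRNA against sham it was 0.156 without control-miRNA 1, 0.0709 without IRI 30, 0.0681 without IRI 34, 0.165 without sham 1 and 0.146 without sham 4. The sign held in all of these fits, and the differences from sham stayed between 1.28 and 2.53. With normexp correction the differences were smaller, 1.07 in IRI, 1.32 in mimic and 1.11 in control miRNA against sham, and passed (limma adjusted p = 0.0281, 0.00938 and 0.0255).

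Mlkl, the pseudokinase that breaches the membrane at the end of the route, had the largest difference from sham of the 6 tested members in each of the 3 injured groups. Its level was -0.05 and -0.80 in IRI, -0.48 and -1.30 in mimic, 0.24 and -0.50 in control-miRNA and -4.00 and -4.01 in sham kidneys (chr8:113835897-113835956, mm9, - strand). The gap between the lowest injured kidney and the sham kidneys exceeded the spread within every group, and the 3 injured groups overlapped. In IRI against sham the difference was 3.58 ± 0.39, a 11.95-fold higher level (limma adjusted p = 0.00262). Mimic minus sham was 3.11 (8.63-fold, limma adjusted p = 0.00366) and control miRNA minus sham 3.87 (14.6-fold, limma adjusted p = 0.00237). These 3 calls held in all 8 fits that left out 1 array. With normexp background correction, which adds an offset of 50 to every signal, they also passed but at smaller sizes, 2.01 in IRI, 1.75 in mimic and 2.29 in control miRNA against sham (limma adjusted p = 0.00184, 0.00297 and 0.00114).

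Among the injured groups the mean level of Mlkl was -0.89 in mimic, -0.42 in IRI and -0.13 in control-miRNA kidneys, and no neighbours in that order differed beyond their spread. Mimic minus control miRNA was -0.76, from -1.68 to 0.16 (limma adjusted p = 0.208), and mimic minus IRI -0.47, from -1.39 to 0.45 (limma adjusted p = 0.393). Both intervals hold 0 and a fall of more than 2-fold.

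In the pyroptosis route the 2 inflammasome sensors were at the edge of detection. The probe of Nlrp3, the sensor of ion flux and membrane damage, was not well above background on any of the 8 arrays. Its unscaled processed signal was 8.2 and 4.0 in IRI, 6.6 and 4.6 in mimic, 12.4 and 7.2 in control-miRNA and 12.4 and 10.0 in sham kidneys, so no fold can be given. Aim2, the sensor of cytosolic double-stranded DNA, read 8.6 and 15.1 in IRI, 19.0 and 21.7 in mimic, 11.96 and 10.5 in control-miRNA and 14.7 and 11.5 in sham kidneys, and only mimic 7 was well above background.

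Set to levels, Aim2 stood at -5.77 and -5.31 in IRI, -4.02 and -3.48 in mimic, -5.38 and -5.31 in control-miRNA and -4.79 and -5.37 in sham kidneys. The mimic kidneys were the highest on either scale. With a signal well above background on 1 of the 8 arrays, no fold and no test are given for Aim2. A second Aim2 probe was not well above background on any of the 8 arrays.

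Pycard, which encodes the adaptor ASC that links sensors to caspase-1, was higher in every injured kidney. Its level was 2.21 and 2.19 in IRI, 1.86 and 1.83 in mimic, 2.14 and 1.89 in control-miRNA and 1.00 and 1.05 in sham kidneys (chr7:135136241-135136300, mm9, - strand). All injured kidneys were above both sham kidneys, and the mimic kidneys were the lowest of the injured. The difference of IRI from sham was 1.17 ± 0.16, or 2.25-fold (limma adjusted p = 0.00554), mimic minus sham 0.82, or 1.77-fold (limma adjusted p = 0.0134), and control miRNA minus sham 0.99, or 1.98-fold (limma adjusted p = 0.0104). Mimic minus IRI was -0.35, from -0.73 to 0.03 (limma adjusted p = 0.148), and mimic minus control miRNA -0.17, from -0.55 to 0.21. A second probe under this name lies on the + strand, opposite to the first, and was above background nowhere.

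Without 1 array the Pycard calls fell just short in several fits. In IRI against sham the adjusted p (limma) was 0.0559 without IRI 30, 0.0615 without sham 1 and 0.0511 without sham 4. In mimic against sham it was 0.0928 without sham 1 and 0.0921 without sham 4, and in control miRNA against sham 0.0687 without control-miRNA 1, 0.0967 without sham 1 and 0.0779 without sham 4. The size moved little, from 0.79 to 1.20 over all these fits.

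Gsdmd encodes gasdermin D, the pore-forming substrate of caspase-1. Its level was -2.39 and -2.58 in IRI, -1.76 and -2.07 in mimic, -2.32 and -2.13 in control-miRNA and -2.42 and -2.66 in sham kidneys (chr15:75697536-75697595, mm9, + strand). IRI and sham kidneys overlapped, while both mimic kidneys lay above all others. Between IRI and sham the difference was 0.06, from -0.40 to 0.51 (limma adjusted p = 0.858). Mimic minus sham was 0.63 ± 0.19, a 1.54-fold higher level, and passed narrowly (limma adjusted p = 0.0497). Mimic minus IRI was 0.57, from 0.12 to 1.02 (limma adjusted p = 0.0759), and mimic minus control miRNA 0.31, from -0.14 to 0.76 (limma adjusted p = 0.282). The call against sham remained only in the fit without mimic 7 (adjusted p = 0.0404, limma); in the other fits without 1 array the adjusted p was 0.0696 to 0.264. It was also lost with the series table and with quantile normalization, at 0.43 (limma adjusted p = 0.129 in both), and without the filter on dim probes (0.101). A second probe of Gsdmd was well above background on 2 of the 8 arrays, 1 of IRI and 1 of control miRNA, and was not tested.

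**Figure D2:**
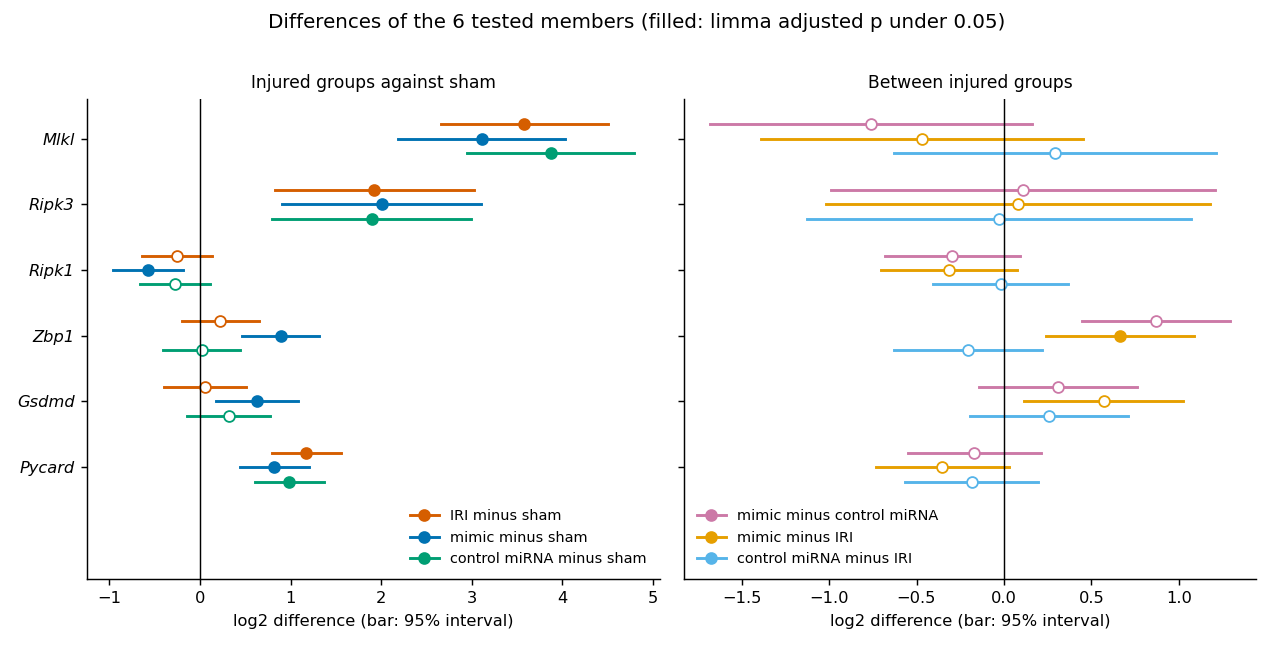
Log2 differences of the 6 tested members with 95% intervals, each injured group minus sham on the left and pairs of injured groups on the right; filled points passed the test. Mlkl, Ripk3 and Pycard have filled points in all 3 comparisons with sham, and 1 point, Zbp1 in mimic minus IRI at 0.67, is filled on the right.

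**Figure D3:**
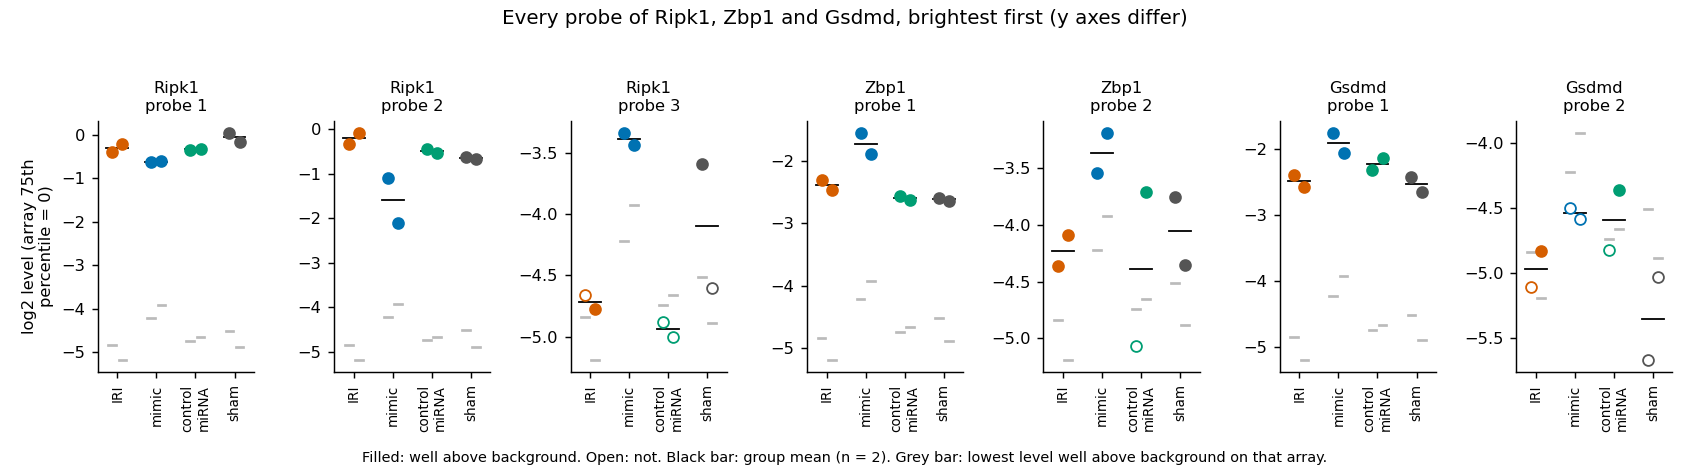
Level of every probe of Ripk1, Zbp1 and Gsdmd in each kidney (log2 signal, array 75th percentile at 0), brightest probe first; filled points are well above background, black bars are means of 2 mice and grey bars the lowest level well above background on that array. The mimic kidneys are lowest on the first and second Ripk1 probes and highest on the dim last one. Before scaling, sham 1 read above both mimic kidneys on that last probe.

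Array brightness moved with the mimic group. The 2 mimic arrays had the lowest 75th percentiles, 308 and 242, against 408 to 600 on the other 6, and the highest lower limits of detection, at levels of -4.22 and -3.92 against -5.20 to -4.51. With the log2 75th percentile of each array as a covariate, 0 of the 6 members passed in mimic against sham (limma; 115 of 21264 genes passed): Mlkl stood at 3.51 (adjusted p = 0.112), Ripk3 at 3.38 (0.0946) and Pycard at 0.97 (0.167). In the same fit Zbp1 stood at 1.02 (adjusted p = 0.190), Gsdmd at 0.52 (0.479) and Ripk1 at -0.55 (0.368). The part of brightness in these differences was not tested further.

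Before scaling, the signals of Zbp1 were 94.2 and 108 in IRI, 105 and 64.7 in mimic, 84.3 and 67.1 in control-miRNA and 67.7 and 75.9 in sham kidneys, so the mimic kidneys did not stand apart. Those of Gsdmd were 89.2 and 101 in IRI, 91.0 and 57.6 in mimic, 100 and 94.9 in control-miRNA and 76.0 and 75.5 in sham kidneys, and overlapped as well. The unscaled signals of Mlkl, at 98.0 to 590 in injured kidneys against 25.5 and 29.6 in sham kidneys, kept all injured kidneys above sham. Those of Ripk3, at 71.1 to 301 against 42.3 and 51.0, did so too. Those of Pycard did not, as mimic 7 read 859, below sham 4 at 988. Slide row 1 held the IRI and sham arrays and row 2 the mimic and control-miRNA arrays, and row and injection cannot be told apart.

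**Figure D4:**
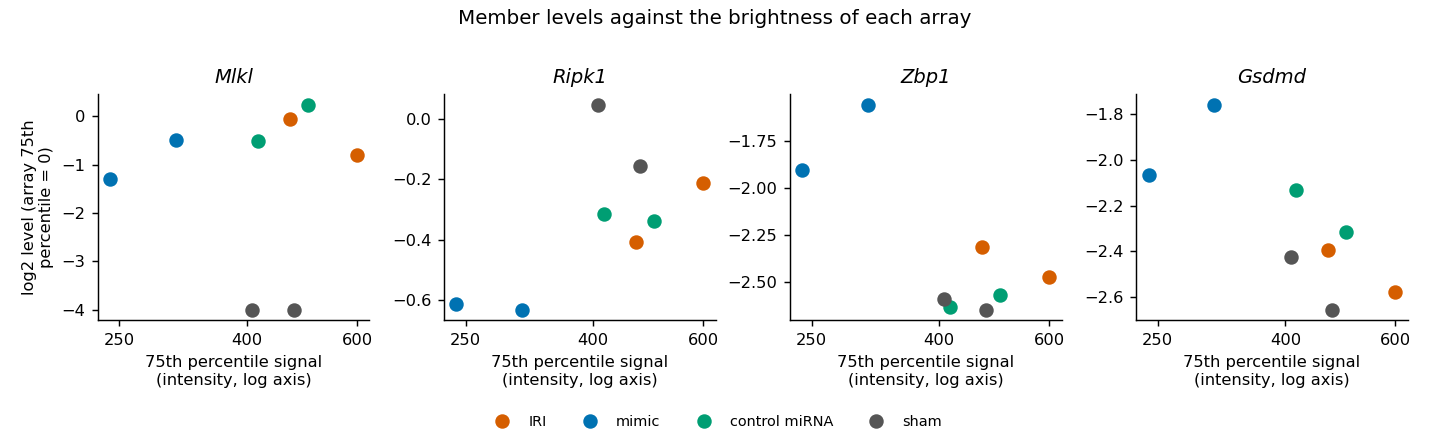
Level of Mlkl, Ripk1, Zbp1 and Gsdmd (log2 signal, array 75th percentile at 0) against the 75th percentile of the processed signal on each array (log axis), 1 point per kidney, coloured by group. The 2 mimic arrays, at 242 and 308, are the dimmest and hold the highest levels of Zbp1 and Gsdmd and the lowest of Ripk1.

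By the shape of their levels over the 8 arrays, each centred on its own mean, the genes nearest to Mlkl were Mt2, a metallothionein, Steap1, a metalloreductase, and Akr1b8, an aldo-keto reductase, at root mean square differences of 0.240, 0.243 and 0.258. Mt2 ran at 8.80 and 8.44 in IRI, 8.85 and 7.74 in mimic, 8.77 and 8.49 in control-miRNA and 4.78 and 4.85 in sham kidneys. The genes nearest to Ripk3 were Tuba1a (0.156), Itgb3 (0.190) and Dapp1 (0.210), those nearest to Pycard were Impdh2 (0.0697), Prkx (0.0751) and Nubp1 (0.0841), and those nearest to Zbp1 were Hoxa4 (0.115), Ifi205 (0.122) and S1pr3 (0.123). Naxd (0.0476), Zdhhc6 and Pawr were nearest to Ripk1, and Rnf170 (0.0408), Map7d3 and Rbms1 to Gsdmd. Among the members themselves the nearest pair was Zbp1 and Gsdmd at 0.227, and Mlkl stood nearest to Ripk3, at 0.791. These are descriptions over 8 arrays, in which the difference from sham sets most of the shape of Mlkl, Ripk3 and Pycard.

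Of the 16 genes tested that signal into necroptosis, 3 were higher and 0 lower in IRI than in sham kidneys, with a median log2 difference of 0.05 against -0.08 over all genes, of which 9.45% were higher and 8.85% lower. Tnfrsf1a, the TNF receptor that recruits RIPK1, was at 4.23 and 4.50 in IRI, 3.45 and 3.39 in mimic, 3.95 and 4.11 in control-miRNA and 2.47 and 2.69 in sham kidneys. All injured kidneys exceeded sham, and the mimic kidneys were the lowest of the injured: IRI minus sham was 1.79 (limma adjusted p = 0.00202) and mimic minus IRI -0.95 (limma adjusted p = 0.0386). Traf2, an adaptor of that receptor, rose by 0.92 and Ifngr1, an interferon gamma receptor chain, by 0.81 in IRI against sham (limma adjusted p = 0.0206 and 0.0247). Tnf, the ligand, stood at -1.87 and -2.11 in IRI, -1.78 and -1.36 in mimic, -2.34 and -1.91 in control-miRNA and -1.28 and -1.46 in sham kidneys, and IRI minus sham was -0.62 (limma adjusted p = 0.111). Tlr4, which can reach RIPK3 through the adaptor TRIF, was higher in mimic than in IRI kidneys by 0.86 (limma adjusted p = 0.0386).

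Of 19 genes that restrain the RIPK1 and RIPK3 step, 6 were higher and 0 lower in IRI, 4 higher and 1 lower in mimic and 5 higher and 0 lower in control-miRNA than in sham kidneys, with medians of 0.37, 0.25 and 0.42 against -0.08, 0.11 and -0.05 over all genes. The shares of all genes that were higher than in sham were 9.45% in IRI, 15.2% in mimic and 9.55% in control-miRNA kidneys. Casp8, the protease that cleaves RIPK1 and RIPK3, was at 2.02 and 1.81 in IRI, 1.21 and 0.75 in mimic, 1.87 and 1.81 in control-miRNA and 0.19 and 0.26 in sham kidneys. The injured kidneys were all above sham and the mimic kidneys below the other injured ones. IRI minus sham was 1.69 (limma adjusted p = 0.00350), mimic minus IRI -0.93 (0.0387), and mimic minus control miRNA -0.86 did not pass (0.0662). Birc3, a ubiquitin ligase for RIPK1, rose in IRI against sham by 1.70, Mapkapk2, a kinase that phosphorylates RIPK1, by 1.26, Ikbkg by 1.46 and Xiap by 0.59. Tnfaip3, the ubiquitin-editing enzyme A20, passed in control miRNA against sham alone (0.88, limma adjusted p = 0.0293). IRI minus sham was 0.56 (limma adjusted p = 0.0971). In control miRNA minus IRI and in mimic minus control miRNA 0 of the 19 genes passed, Tnfaip3 included. No difference of Tnfaip3 between those injured groups is therefore shown. Rbck1, a part of the linear ubiquitin ligase, was at -0.07 in IRI minus sham (0.777).

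Of 20 inflammasome partner genes tested, 4 were higher and 2 lower in IRI, 6 higher and 2 lower in mimic and 4 higher and 2 lower in control-miRNA than in sham kidneys. Among all genes the higher share was 9.45% for IRI, 15.2% for mimic and 9.55% for control miRNA, and the lower share 8.85%, 12.8% and 7.79%. The median of the list was 0.0024 in IRI, 0.57 in mimic and 0.08 in control miRNA against sham, where that of all genes was -0.08, 0.11 and -0.05. Mefv, in this list, was at -5.87 and -6.07 in sham kidneys, below the lowest level well above background on those arrays. It passed the filter through injured groups alone, where it is higher, so no test is given for it. It stays in the counts of this list. Panx1, a channel-forming protein, rose by 2.55 in IRI, 3.14 in mimic and 2.56 in control-miRNA kidneys against sham, and Sting1, the adaptor of cytosolic DNA sensing, by 2.62, 2.24 and 2.14 (limma adjusted p of 0.00226 or less for each). Casp4, the caspase that cleaves gasdermin D in response to intracellular lipopolysaccharide, was at -0.45 and -0.44 in IRI, -0.07 and 0.46 in mimic, -0.46 and -0.53 in control-miRNA and -1.25 and -1.33 in sham kidneys. All injured kidneys were above sham, and IRI minus sham was 0.84 (limma adjusted p = 0.0352). The sensors Naip2 and Nlrp6 fell in IRI against sham, by 1.32 and 1.59 (limma adjusted p = 0.00291 and 0.0219).

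Casp1, the protease that ASC activates, did not pass in any comparison: its level was -3.36 and -2.94 in IRI, -2.57 and -1.75 in mimic, -2.62 and -3.33 in control-miRNA and -2.57 and -3.06 in sham kidneys, where the mimic kidneys were the highest 2 and the other 3 groups overlapped. The difference of IRI from sham was -0.33 (limma adjusted p = 0.565) and mimic minus IRI 0.99 (0.0986). Pstpip1, a partner of pyrin, was higher in mimic than in IRI kidneys by 2.40 (limma adjusted p = 0.0455). Ifi204, a DNA sensor of the AIM2 family, was higher in mimic than in sham kidneys by 1.09 (limma adjusted p = 0.0373). The list's median in mimic minus IRI was 0.58, against 0.10 over all genes. That median over all genes moved with the processing, to 0.50 without the filter on dim probes and -0.0046 with quantile normalization. The median of the list was not computed under those settings, and the part of array brightness in it was not tested.

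Of 16 genes tested downstream of pyroptosis, 5 were higher and 0 lower in IRI, 5 higher and 0 lower in mimic and 3 higher and 0 lower in control-miRNA than in sham kidneys; Casp4 counts in this list and the last. Of all genes 9.45% were higher in IRI, 15.2% in mimic and 9.55% in control-miRNA than in sham kidneys. The list's medians were 0.55, 0.70 and 0.46, against -0.08, 0.11 and -0.05 over all genes. Gsdma, in this list, was below the lowest level well above background on both sham arrays and passed the filter through injured groups alone. Il1rn, the interleukin 1 receptor antagonist, could not be measured above background in the sham group. It passed the filter through injured groups alone, where it is high, so no test is given for it. It stays among the higher genes in the counts of this list. Relative to sham its level was at least 11.8-fold higher in IRI, at least 5.33-fold in mimic and at least 4.91-fold in control-miRNA kidneys. A bound sets each sham array at the higher of the probe's own level and the lowest level well above background there. Il1b stood at -2.55 and -1.92 in IRI, -1.93 and -2.78 in mimic, -2.52 and -3.19 in control-miRNA and -2.63 and -3.28 in sham kidneys, and did not pass (IRI minus sham 0.72, limma adjusted p = 0.255). Il18, the other cytokine that caspase-1 matures, was at 0.48 in IRI minus sham (limma adjusted p = 0.329). Serpinb1a, an inhibitor of neutrophil proteases and inflammatory caspases, rose by 1.69 in IRI against sham (limma adjusted p = 0.0109).

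Gsdme, another pore-forming gasdermin, was at 1.74 and 1.73 in IRI, 0.98 and 0.86 in mimic, 1.37 and 1.34 in control-miRNA and 0.74 and 0.98 in sham kidneys. The mimic and sham kidneys overlapped, with IRI above both: IRI minus sham was 0.87 (limma adjusted p = 0.0143), mimic minus IRI -0.81 (0.0386) and mimic minus sham 0.06 (0.793). Hmgb1, a nuclear protein released by lysed cells, was higher in mimic than in IRI kidneys by 1.05 (limma adjusted p = 0.0479).

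Of 18 genes of the ESCRT machinery and its partners, which shed or seal membrane damaged by MLKL or gasdermin D, 5 were higher and 0 lower in IRI, 3 higher and 3 lower in mimic and 5 higher and 0 lower in control-miRNA than in sham kidneys. Higher than in sham were 9.45% of all genes for IRI, 15.2% for mimic and 9.55% for control miRNA, and lower were 8.85%, 12.8% and 7.79%. Flot1, a membrane scaffold protein, rose by 1.95, Chmp2b by 1.19, Chmp4b by 1.12 and Pdcd6ip, also known as ALIX, by 1.13 in IRI against sham (limma adjusted p = 0.00481, 0.00516, 0.00891 and 0.0360). In mimic against IRI 1 was higher and 4 lower, with a median of -0.59 against 0.10 over all genes, of which 16% passed in either direction. Vps4b, the ATPase that disassembles ESCRT filaments, was at 1.72 and 1.97 in IRI, 0.88 and 0.52 in mimic, 1.81 and 1.66 in control-miRNA and 1.49 and 1.80 in sham kidneys. The mimic kidneys were below all others, by 1.15 from IRI (limma adjusted p = 0.0386) and by 0.95 from sham (0.0196). Rab27a, which acts in vesicle release, fell by 0.95 in mimic against sham (0.0291), and Chmp3 was higher in mimic than in IRI kidneys by 1.01 (0.0465).

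Of 27 interferon-induced genes, the class to which Zbp1 belongs, 3 were higher and 1 lower in IRI, 12 higher and 0 lower in mimic and 5 higher and 1 lower in control-miRNA than in sham kidneys, with medians of 0.42, 0.81 and 0.26 against -0.08, 0.11 and -0.05 over all genes. Of all genes 9.45% were higher in IRI, 15.2% in mimic and 9.55% in control-miRNA kidneys. Eif2ak2 and Ddx58, sensors of double-stranded RNA, were higher in IRI than in sham kidneys by 1.72 and 1.41 (limma adjusted p = 0.00362 and 0.00475), and Oasl1 by 1.64 (0.0389), while Cmpk2 fell by 1.03 (0.0269). Isg15 was at 1.01 and 1.42 in IRI, 2.28 and 2.10 in mimic, 0.65 and 0.91 in control-miRNA and 0.83 and 0.32 in sham kidneys. In scaled level, as with Zbp1, both mimic kidneys lay above the other 6. Mimic minus IRI was 0.97 (limma adjusted p = 0.0453), mimic minus sham 1.61 (0.00637) and mimic minus control miRNA 1.41 (0.0662). Usp18 was higher in mimic than in IRI kidneys by 0.76 (0.0476). Oas1a rose by 1.22 in mimic against sham (0.0181), and Trim30a, at 0.39, did not pass there (0.259). In mimic against IRI 5 of the 27 were higher and 1 lower, where 16% of all genes passed in either direction, and in mimic against control miRNA 0 of the genes in these 6 lists passed. With array brightness as a covariate, 0 of all genes passed in mimic against IRI and 115 in mimic against sham (limma).

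**Figure D5:**
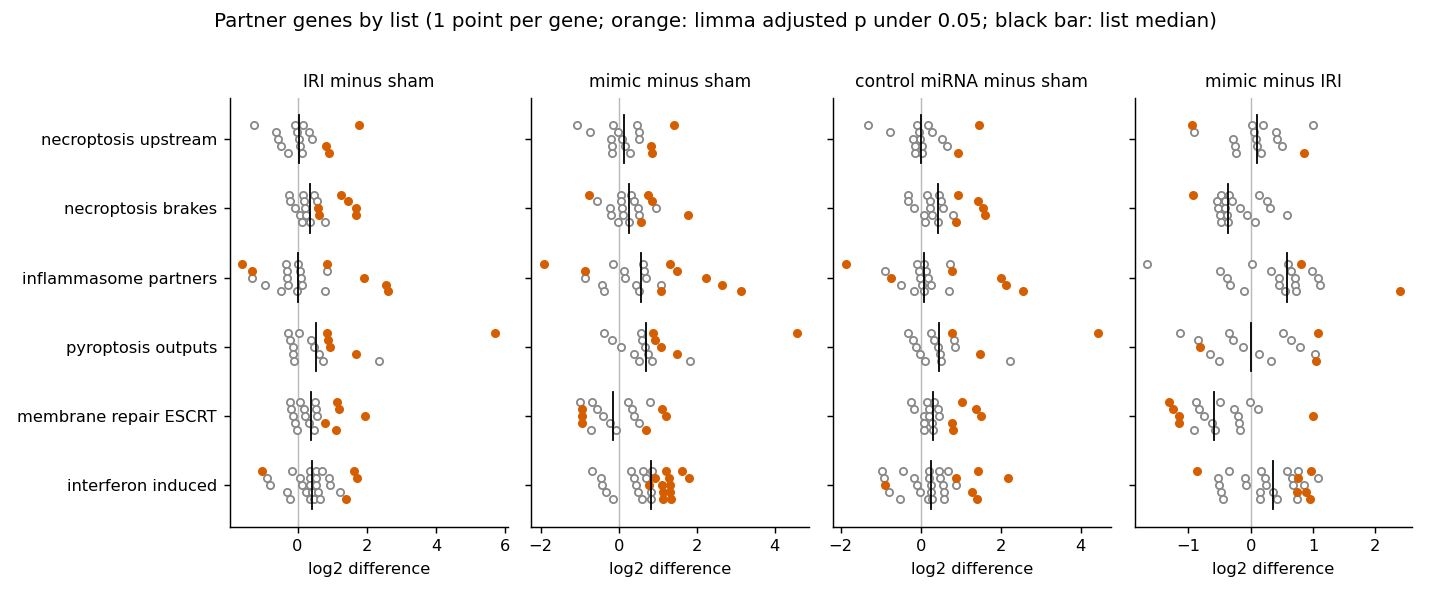
Log2 differences of the genes in the 6 lists (1 point per gene, orange where the test was passed, black bars at list medians) in 4 comparisons. The orange points of the interferon-induced genes number 12 in mimic minus sham, all above 0, against 4 in IRI minus sham. Of all genes 15.2% were higher and 12.8% lower in mimic minus sham, against 9.45% and 8.85% in IRI minus sham.

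Markers of leukocytes and of stromal cells moved with some of these comparisons. Of 4 pan-leukocyte markers tested 0 passed in IRI against sham and 3 were higher in mimic than in IRI kidneys. Over all genes 9.45% were higher and 8.85% lower in IRI than in sham kidneys, and 16% passed in either direction in mimic against IRI. The summed level of the 5 markers of that list on the linear scale, where 1 is the 75th percentile of an array, was 6.33 to 6.41 in IRI, 10.7 to 13.2 in mimic, 7.76 to 7.77 in control-miRNA and 7.39 to 9.12 in sham kidneys, and 1 of the 5 was below background on all arrays. Neutrophil markers were higher against sham in 4 of 8 for IRI, 4 for mimic and 5 for control miRNA, with S100a8 and S100a9 among them. Of all genes 15.2% were higher than in sham for mimic and 9.55% for control miRNA. Retnlg, Cxcr2 and Mmp8 were below the lowest level well above background on both sham arrays. They passed the filter through injured groups alone. The summed level of the 9 markers was 45.7 to 52.0 in IRI, 75.7 to 99.7 in mimic, 51.3 to 64.4 in control-miRNA and 46.3 to 51.7 in sham kidneys. Of 10 macrophage and monocyte markers 3 were higher and 3 lower in IRI than in sham kidneys, Cd14 and Cd68 among the higher and Csf1r and Adgre1 among the lower. All 4 fibroblast markers were higher in mimic than in IRI kidneys, with summed levels of 17.6 to 28.1 in mimic and 4.89 to 7.06 in IRI kidneys. The part of these cells in the levels of Mlkl, Ripk3, Pycard, Zbp1 and Gsdmd was not tested.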

How the data were processed

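Total RNA of 30 mg of left kidney from each of 8 mice was labelled with Cy3 from 50 ng per array and read in 1 colour, per the labels' protocols. Per the submitters' processing notes, the scanned images were read with version 12.0.3.1 of Agilent Feature Extraction. The processed signal used here is an intensity from which, per the file headers, background and spatial trend were removed on each array, with no scaling to the other arrays. A deposited table of the whole series gives a ratio for each probe, which its values show to be the probe's signal over its median of the 8 arrays; any earlier scaling is not stated. Its column medians were 0.998 and 0.998 in IRI, 1.00 and 1.02 in mimic, 1.00 and 0.995 in control-miRNA and 1.00 and 0.992 in sham samples, and it served only as an alternative. Of its value columns 0 were unused. Nothing in the sources says more of the samples than separate mouse numbers, so the 2 samples of a group were taken as separate animals.

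Control spots were dropped, as were 79 to 127 spots per array with outlier flags; saturation was found in 0 spots. Levels are log2 processed signals with the 75th percentile of each array set to 0, as means over the spots of each probe. A probe passed the filter (32216 did) if some group had it well above background in both mice, and the brightest on average represented its gene (21264 genes). Of 56605 probes 33767 were named through a RefSeq accession with a GRCm38 gene table, 9866 by current symbol, 310 by older symbol, and 12662 kept the file's name. Positions are those of mm9 in the files.

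Tests used limma 3.58.1 in R 4.3.3 with a mean per group over all 8 arrays (6.84 degrees of freedom) and Benjamini-Hochberg adjustment over all genes. The script was tested on simulated data. Errors of differences are moderated standard errors. All arrays were on 1 slide with 1 scan time. The alternatives were normexp background correction (offset 50), the series table, no filter, array brightness as a covariate, the mean of a gene's probes, quantile normalization and leaving out each array in turn.

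The members and the gene lists were chosen with earlier results of these data known. The text names every member and probe and, from each pathway list, up to 4 genes with the smallest p in IRI minus sham and in mimic minus control miRNA, and always Tnf, Casp1, Casp8, Il1b and Il18. It also names the 3 genes nearest to each tested member by root mean square difference of centred levels, leaving out clone, predicted and accession names. A few cell type markers are named as examples or for their sham levels, as are Mefv and Gsdma for theirs. A certain gene that the rule would name is left out of the text and stays in the counts of its list.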

Additional observations from a re-analysis of the deposited data

How the results depend on the processing

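The higher levels of Mlkl, Ripk3 and Pycard against sham kept their sign under every alternative run, and Mlkl passed in each except mimic against sham with array brightness as a covariate. Settings below give counts of members, then genes, that passed (limma). The fit without the filter tested 8 members and 36825 genes. The other settings with all arrays tested 6 members and 21264 genes, so counts without the filter have a larger base. Mimic minus control miRNA gave 1 member and 5833 genes with normexp. Mimic minus IRI gave 3 members (Zbp1, Gsdmd and Pycard) and 10343 genes with normexp, 2 and 11947 without the filter, 0 and 0 with brightness, and 0 members with the series table, the mean of a gene's probes or quantile normalization, an alternative chosen after seeing the data. Mimic minus sham gave 0 members and 115 genes with brightness and 3853 genes without the filter. IRI minus sham gave 2450 genes without the filter and 1857 with brightness, and control miRNA minus sham 2279 without the filter. Aim2 is among the members counted in mimic minus sham and mimic minus IRI without the filter, and in the 3 mimic comparisons without mimic 6. Ripk3 lost its call without the filter in IRI minus sham (adjusted p = 0.0574) and control miRNA minus sham (0.0637), and with brightness in IRI minus sham (0.0999, limma).

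Signs turned in differences that had not passed. With normexp Gsdmd in IRI minus sham was -0.0042, Zbp1 in control miRNA minus sham -0.0136 and Ripk3 in control miRNA minus IRI 0.0423. With brightness Ripk3 in control miRNA minus IRI was 0.40 and Mlkl in mimic minus IRI 0.0894. With the series table and with quantile normalization Ripk3 was -0.0660 and -0.0655 in mimic minus control miRNA, and -0.13 in mimic minus IRI with either. With the mean of probes Zbp1 in control miRNA minus sham was -0.16 and Ripk1 in mimic minus control miRNA 0.0536. The causes were not tested.

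Leaving out 1 array, which assumes that the lone mouse varies like the other groups, gave 1 to 3 members and 815 to 5882 genes in IRI minus sham, 1 to 5 and 1104 to 7346 in mimic minus sham, 1 to 3 and 683 to 5657 in control miRNA minus sham, 0 to 2 and 0 to 6352 in mimic minus control miRNA, 0 to 1 and 0 to 7614 in mimic minus IRI, and 0 and 0 in control miRNA minus IRI. Signs turned for Gsdmd in IRI minus sham (-0.0596 to 0.17), Zbp1 in control miRNA minus sham (-0.0141 to 0.0524), Ripk3 in mimic minus control miRNA (-0.51 to 0.73), mimic minus IRI (-0.44 to 0.61) and control miRNA minus IRI (-0.65 to 0.59), and, in control miRNA minus IRI, Mlkl (-0.0812 to 0.66) and Ripk1 (-0.12 to 0.0792).

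The median of all genes in mimic minus IRI was 0.10, against 0.22 with normexp, 0.50 without the filter, -0.0052 with the series table and -0.0046 with quantile normalization; in mimic minus sham it was 0.11, against 0.22 with normexp, 0.38 without the filter and 0.03 with the series table or quantile normalization. Of genes that passed, 65.5% were higher in mimic minus IRI, against 86.6% without the filter and 51.7% with quantile normalization or the series table, and 54.3% in mimic minus sham, against 65.2% with brightness (115 genes), 48.1% with the series table and 48.2% with quantile normalization. No paired analysis was possible because each left kidney had a single operation and was taken once. The number 1 in the sham and control-miRNA labels was taken to mark separate animals. Signal over background limits Nlrp3, Aim2 and the dim probes.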
